A study of Mus musculus with 6 samples.

Results

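The globin genes of E9.5 mouse hearts were examined in 3 *Smyd1-KO* and 3 WT hearts. The group was defined by name as 8 genes, the alpha-like globins *Hba-x*, *Hba-a1* and *Hba-a2*, the beta-like globins *Hbb-y*, *Hbb-bh1*, *Hbb-bt* and *Hbb-bs*, and the alpha globin chaperone *Ahsp*. Of these, 7 were found among the 54532 genes of the count table and all 7 passed the filter on low counts. *Ahsp* was not analysed here. *Smyd1* encodes a methyltransferase of heart and skeletal muscle, and *Smyd1-KO* embryos lack it in the whole body rather than in heart cells alone. The line goes back to *Smyd1*+/- mice from the Jackson Laboratory, RNA was taken from the heart of 1 embryo for each library, and the labels name no treatment. Embryos of both sexes were used.

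Hemoglobin is a tetramer of 2 alpha-like and 2 beta-like chains. The genes for the chains lie in separate clusters, in each of which the embryonic genes precede the adult genes in the direction of transcription. In mice the first red cells are the primitive erythroid cells of the yolk sac, which enter the circulation at about this stage and are therefore found inside the heart. They first contain much *Hba-x* (zeta) and *Hbb-bh1* (beta-H1), and as they mature the balance moves to *Hba-a1* and *Hba-a2* (alpha) and to *Hbb-y* (epsilon-y). *Hbb-bs* and *Hbb-bt* encode the beta chains of adult hemoglobin.

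On the GRCm38 genome the alpha-like cluster lies on the forward strand of chromosome 11, with *Hba-x* at 32276400 to 32278116, *Hba-a1* at 32283511 to 32284465 and *Hba-a2* at 32296489 to 32297298. The beta-like cluster lies on the reverse strand of chromosome 7, with *Hbb-y* at 103851749 to 103853216, *Hbb-bh1* at 103841637 to 103843164, *Hbb-bs* at 103826534 to 103828096 and *Hbb-bt* at 103812524 to 103813996. All 7 are protein-coding genes. The 150 bases before the RefSeq start of 5 of the genes are shown, since members with the most similar values across the hearts came from different clusters. *Hbb-bh1* had no matched RefSeq promoter, so it is not shown and could not be set beside *Hba-x*. The positions above are those of GENCODE, which starts each of these 5 genes farther upstream than RefSeq. Each stretch therefore overlaps its gene as placed above, and distances below are counted from the RefSeq start. Capitals mark 4 short motifs on either strand. They are CACCC, a core bound by Krüppel-like factors, then CCAAT, which CCAAT-binding factors contact, then GATAA, a core for GATA factors, and TATAA, the core of the TATA box.
*Hba-x* (chr11:32276450-32276599, forward strand): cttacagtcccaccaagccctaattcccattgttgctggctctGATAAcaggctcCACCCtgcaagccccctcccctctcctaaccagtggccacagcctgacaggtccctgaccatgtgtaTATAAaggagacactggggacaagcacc
*Hba-a1* (chr11:32283522-32283671, forward strand): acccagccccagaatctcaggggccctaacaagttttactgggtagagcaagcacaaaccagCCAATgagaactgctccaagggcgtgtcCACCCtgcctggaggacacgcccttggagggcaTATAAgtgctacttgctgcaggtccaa
*Hbb-y* (chr7:103853208-103853357, reverse strand): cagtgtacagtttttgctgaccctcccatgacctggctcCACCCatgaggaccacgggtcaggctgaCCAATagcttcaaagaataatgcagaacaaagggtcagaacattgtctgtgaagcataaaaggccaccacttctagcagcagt
*Hbb-bs* (chr7:103827929-103828078, reverse strand): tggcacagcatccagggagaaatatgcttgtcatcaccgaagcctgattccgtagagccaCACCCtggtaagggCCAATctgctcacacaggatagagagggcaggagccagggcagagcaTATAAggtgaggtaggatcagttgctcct
*Hbb-bt* (chr7:103813924-103814073, reverse strand): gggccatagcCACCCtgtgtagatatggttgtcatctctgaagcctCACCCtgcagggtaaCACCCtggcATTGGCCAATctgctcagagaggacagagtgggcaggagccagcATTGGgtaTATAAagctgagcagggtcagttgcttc

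Each of the 5 stretches holds CACCC, which starts 95 bases before the start of *Hba-x*, 60 before that of *Hba-a1*, 111 before that of *Hbb-y* and 90 before that of *Hbb-bs*. *Hbb-bt* has 3 copies, at 140, 104 and 89 bases. CACCC on either strand was found in 37.4% of 32851 RefSeq promoter stretches of the same length. CCAAT was found in every stretch shown but that of *Hba-x*, against 24.5% of all stretches. TATAA was found in every one but that of *Hbb-y*, against 14.2%. GATAA was found only in that of *Hba-x*, against 13.3%, and in the 250 bases before the start it was found once in each of the 5 genes, against 22.6% of all promoters. The searched 250 bases of *Hba-a2* shared an unbroken stretch of 247 bases with those of *Hba-a1*. A match of letters is a description and does not show that a factor binds.

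Depth and the other tissues of the sample were checked first. The library of *Smyd1-KO* heart 1 was the smallest, with 48627825 counts over all genes, and that of WT heart 3 was the largest, with 64217529. *Smyd1*, counted over the whole gene, was measured at 101, 222 and 206 CPM (gene counts scaled to a common library size with edgeR's TMM factors) in *Smyd1-KO* hearts 1, 2 and 3. In WT hearts 1, 2 and 3 it was measured at 414, 379 and 270 CPM, so the genotypes did not overlap. *Smyd1* was not called by edgeR (adjusted *P*=0.0973) but was called lower by DESeq2 (adjusted *P*=0.00551). The part of the gene that the allele lacks was not analysed here. All 10 cardiomyocyte markers were expressed, with a summed level of 8680 to 18200 CPM in *Smyd1-KO* hearts, against 11100 to 19300 CPM in WT hearts.

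*Hba-x*, *Hba-a1*, *Hba-a2*, *Hbb-y* and *Hbb-bh1* had lower levels in each *Smyd1-KO* heart than in any WT heart, with WT means 3.82 to 7.05 times the *Smyd1-KO* means, and none of them passed edgeR's threshold. The 2 adult beta globin genes overlapped between the genotypes. *Hba-x*, the embryonic alpha-like gene, had 325, 4598 and 2662 counts in *Smyd1-KO* hearts 1, 2 and 3, against 15019, 22156 and 21497 in WT hearts 1, 2 and 3. This is 6.68, 77.8 and 46.6 CPM against 252, 349 and 323 CPM. Every *Smyd1-KO* heart lay below every WT heart, and *Smyd1-KO* heart 1 lay far below the other 2. The *Smyd1-KO* mean of 43.7 ± 35.6 CPM compared with a WT mean of 308 ± 50.1 CPM (SD, n=3). The log2 fold change was -2.82 ± 0.731 (SE, edgeR adjusted *P*=0.0703), which did not pass the threshold of 0.05.

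*Hbb-bh1*, its embryonic partner in the beta-like cluster, reached 6.46, 73.6 and 37.6 CPM in *Smyd1-KO* hearts 1, 2 and 3, against 215, 308 and 296 in WT hearts 1, 2 and 3. The groups did not overlap, and the order of the 6 hearts was that of *Hba-x*. The log2 fold change was -2.80 ± 0.727 (SE, edgeR adjusted *P*=0.0703). *Hbb-y*, the other embryonic beta-like gene, reached 6.99, 87.5 and 49.0 CPM in *Smyd1-KO* hearts, against 182, 197 and 206 in WT hearts. Its groups did not overlap either, with a log2 fold change of -2.03 ± 0.719 (SE, edgeR adjusted *P*=0.137). The WT hearts were more alike in *Hbb-y*, with a ratio of highest to lowest of 1.13, than in *Hbb-bh1*, with a ratio of 1.43.

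*Hba-a1*, an adult alpha globin gene that primitive red cells also use, reached 1.85, 22.0 and 14.2 CPM in *Smyd1-KO* hearts 1, 2 and 3. Its WT values were 49.6, 56.6 and 51.5 CPM, all above the *Smyd1-KO* values. The log2 fold change was -2.05 ± 0.69 (SE, edgeR adjusted *P*=0.124). *Hba-a2*, its near-identical copy, reached 0.267, 1.74 and 1.44 CPM in *Smyd1-KO* hearts, against 4.05, 4.73 and 4.38 in WT hearts, again without overlap. Its log2 fold change was -1.92 ± 0.556 (SE, edgeR adjusted *P*=0.0899).

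*Hbb-bs*, one of the adult beta globin genes, had 12, 270 and 219 counts in *Smyd1-KO* hearts 1, 2 and 3 and 321, 185 and 179 counts in WT hearts 1, 2 and 3. In CPM these values were 0.247, 4.57 and 3.84 against 5.39, 2.91 and 2.69. *Smyd1-KO* hearts 2 and 3 lay above WT hearts 2 and 3, and *Smyd1-KO* heart 1 lay below all others. The log2 fold change was -0.34 ± 0.81 (SE, edgeR adjusted *P*=0.831). *Hbb-bt*, the other adult beta globin gene, was the lowest of the 7, with 1, 19 and 48 counts in *Smyd1-KO* and 43, 14 and 14 counts in WT hearts. Its groups overlapped, with a log2 fold change of 0.07 ± 0.926 (SE, edgeR adjusted *P*=0.974). The interval of 1 standard error around both values includes 0, and the counts in *Smyd1-KO* heart 1 leave its share of either gene uncertain.

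**Figure D1:**
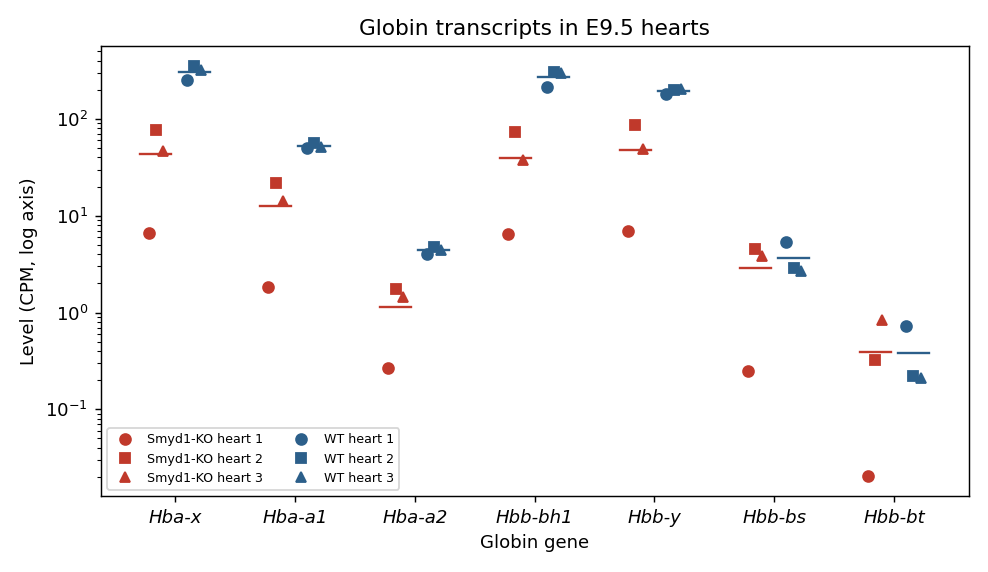
Level of each globin gene in each heart, in CPM on a log axis, with *Smyd1-KO* hearts in red, WT hearts in blue, a symbol for each replicate number and a line at the mean of each group. The 5 genes on the left do not overlap between genotypes, *Hbb-bs* and *Hbb-bt* do, and *Smyd1-KO* heart 1 is the lowest in all 7.

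A gene was called when its adjusted *P* was below 0.05 and its log2 fold change reached 0.5 in either direction. edgeR called 0 of the 7 globin genes lower, where it called 1.42% of the 19372 tested genes lower. At an unadjusted *P* under 0.05, 5 of the 7 were lower, against 11.9% of all tested genes. In the same 5 genes every *Smyd1-KO* heart lay below every WT heart, against 15.5% of all tested genes. The median log2 fold change of the 7 genes was -2.03, beside -0.003 over all tested genes. DESeq2 called *Hba-x* (adjusted *P*=0.0162), *Hbb-bh1* (adjusted *P*=0.0165) and *Hba-a2* (adjusted *P*=0.0014), or 3 of the 7, against 3.21% of the genes it tested. None of the 7 was called higher, against 2.86% of tested genes for edgeR, 5.78% for DESeq2 and 4.04% for edgeR without *Smyd1-KO* heart 1. These counts describe the list, whose members were chosen by role with earlier results known.

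*Smyd1-KO* heart 1 stood apart from the other hearts. Its 7 globin genes together gave 22.5 CPM, against 268 CPM for *Smyd1-KO* heart 2, 153 CPM for *Smyd1-KO* heart 3 and 709, 919 and 883 CPM for WT hearts 1, 2 and 3. Without this heart edgeR called *Hba-x*, *Hba-a1*, *Hba-a2*, *Hbb-y* and *Hbb-bh1* lower, or 5 of the 7, against 2.23% of the genes tested in that fit. The log2 fold changes were then smaller, with -2.31 for *Hba-x* (SE 0.25, edgeR adjusted *P*=0.00517) and -1.51 for *Hbb-y* (SE 0.232, edgeR adjusted *P*=0.0154). *Hbb-bs* had a log2 fold change of 0.20 (adjusted *P*=0.734 by edgeR), the opposite sign to that with all hearts. Leaving out any other heart called 0 of the 7, against 0.0403% to 0.695% of the genes tested in those fits. The 10 cardiomyocyte markers also had their lowest sum in *Smyd1-KO* heart 1, at 8680 CPM, beside 18100 for heart 2 and 18200 for heart 3 of that genotype, and its part in the globin values was not tested. In a bulk sample, fewer red cells and less globin RNA in each cell cannot be told apart.

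**Figure D2:**
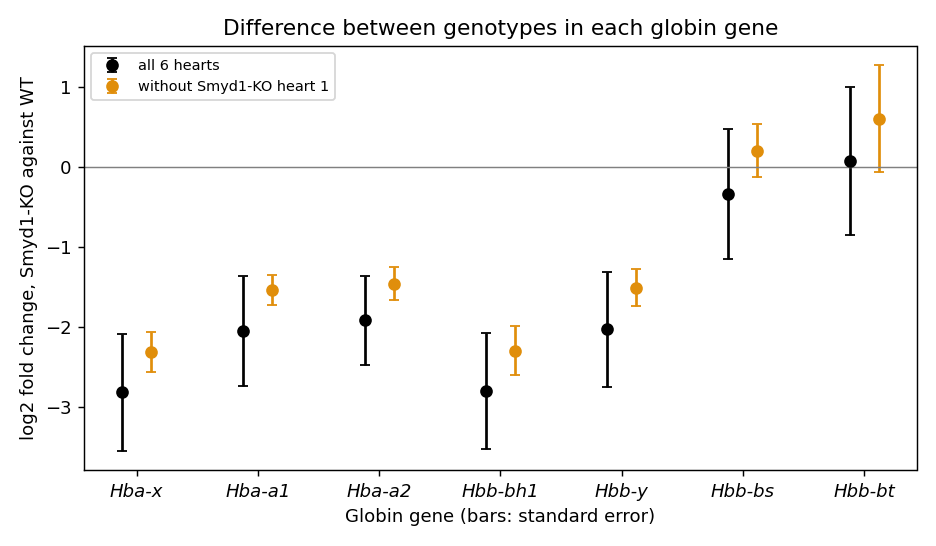
log2 fold change of each globin gene in *Smyd1-KO* against WT hearts by edgeR, with its standard error, from all 6 hearts in black and without *Smyd1-KO* heart 1 in orange. The values from all 6 hearts run from -2.82 to 0.07, and those without that heart from -2.31 to 0.60 with shorter bars.

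Levels of different genes were compared as CPM per kilobase of exonic sequence. In WT hearts *Hbb-bh1* was highest at 446 ± 82.4 CPM per kilobase (SD, n=3), followed by *Hba-x* at 328 ± 53.4 and *Hbb-y* at 308 ± 18.8. The values of *Hba-x* in 3 WT hearts (269, 372 and 344) overlapped those of *Hbb-y* (288, 312 and 325) and those of *Hbb-bh1* (351, 503 and 483). Within each WT heart, however, *Hbb-bh1* was above both other genes, and the order of *Hba-x* and *Hbb-y* varied between hearts. *Hba-a1* followed at 64.8 ± 4.49, *Hba-a2* at 6.57 ± 0.51, *Hbb-bs* at 4.77 ± 1.95 and *Hbb-bt* at 0.546 ± 0.416. *Hba-a2* and *Hbb-bs* overlapped over the WT hearts, and the other neighbors in this lower part of the order did not. In *Smyd1-KO* hearts *Hbb-y* had the highest mean at 75.6 ± 63.6 CPM per kilobase, followed by *Hbb-bh1* at 64.0 ± 54.8 and *Hba-x* at 46.6 ± 38.0, with spreads wider than the distances between them. Within each *Smyd1-KO* heart, *Hbb-y* was above *Hbb-bh1* and *Hbb-bh1* above *Hba-x*.

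The composition of the globin transcripts did not overlap between the genotypes in 3 shares, *Smyd1-KO* heart 1 included. The shares of *Hba-a2* in the adult alpha counts and of *Hbb-bt* in the adult beta counts did overlap. These shares are counts of a heart over counts of the same heart and do not depend on the library size, and their intervals cover counting error only. *Hba-x* made up 75.9%, 76.6% and 74.9% of the alpha-like counts in *Smyd1-KO* hearts 1, 2 and 3. In WT hearts 1, 2 and 3 it made up 82.5%, 85.0% and 85.2%. The *Smyd1-KO* hearts lay together at 75.8 ± 0.888% and below the WT hearts at 84.2 ± 1.55% (SD, n=3), although the *Hba-x* level differed 11.6-fold among them. The Wilson 95% interval of *Smyd1-KO* heart 1, 71.7% to 79.7% on 428 counts, lay below that of the nearest WT heart, 81.9% to 83.0% on 18214 counts.

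*Hbb-bh1* made up 48.0%, 45.7% and 43.4% of the sum of *Hbb-bh1* and *Hbb-y* counts in *Smyd1-KO* hearts 1, 2 and 3, and 54.2%, 60.9% and 59.0% in WT hearts 1, 2 and 3. The group means were 45.7 ± 2.30% and 58.1 ± 3.49%, and the hearts did not overlap. In each WT heart *Hbb-bh1* had more counts than *Hbb-y*, and in each *Smyd1-KO* heart it had fewer. WT heart 1 was the closest WT heart to the *Smyd1-KO* hearts in both shares. The share of *Hbb-bh1* was computed after its counts had been seen.

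The adult genes *Hbb-bs* and *Hbb-bt* together made up a small share of the beta-like counts in every heart. It was 1.95%, 2.94% and 5.13% in *Smyd1-KO* hearts 1, 2 and 3 and 1.51%, 0.616% and 0.574% in WT hearts 1, 2 and 3. Every *Smyd1-KO* heart lay above every WT heart, with means of 3.34 ± 1.63% and 0.901 ± 0.531%. The difference of 2.44 percentage points became 1.55 without *Smyd1-KO* heart 3 and 3.13 without *Smyd1-KO* heart 1. The interval of *Smyd1-KO* heart 1, 1.14% to 3.31% on 13 adult counts, overlapped that of WT heart 1, 1.37% to 1.68%. Alpha-like counts came to 0.642, 0.611 and 0.683 of the beta-like counts in *Smyd1-KO* hearts 1, 2 and 3 and to 0.758, 0.807 and 0.750 in WT hearts 1, 2 and 3, again without overlap.

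**Figure D3:**
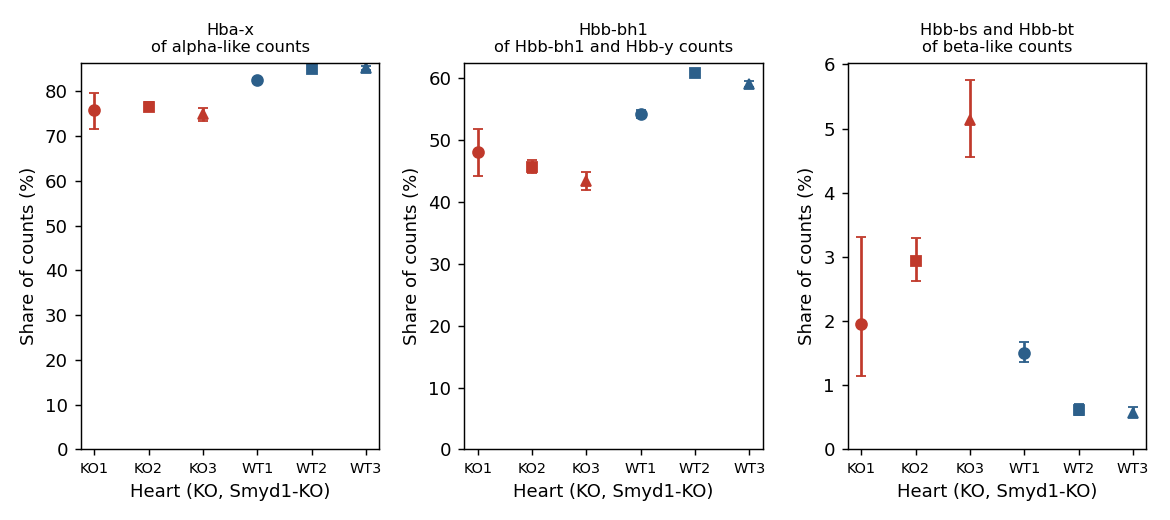
Share of *Hba-x* in the alpha-like counts, of *Hbb-bh1* in the counts of *Hbb-bh1* and *Hbb-y*, and of *Hbb-bs* and *Hbb-bt* in the beta-like counts, in % for each heart with Wilson 95% intervals, *Smyd1-KO* in red and WT in blue. The first 2 shares are lower in all *Smyd1-KO* hearts and the third is higher, with means of 3.34% against 0.901%.

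Ratios of single genes within a heart were compared with exact permutation tests. The ratio of *Hba-x* to *Hba-a1* counts was 3.61, 3.54 and 3.28 in *Smyd1-KO* hearts 1, 2 and 3 and 5.08, 6.16 and 6.26 in WT hearts 1, 2 and 3. The mean difference was -0.74 on the log2 scale, lower in 3 of 3 *Smyd1-KO* hearts (exact permutation test, two-sided, *P*=0.1). *Hbb-bh1* to *Hbb-y* differed by -0.72 and *Hbb-bs* to *Hbb-y* by 1.55 on the same scale, each with the same exact *P*=0.1. *Hbb-bs* to *Hba-a1* differed by 1.56 with *P*=0.1 by the same exact test. This is the smallest *P* that 3 hearts against 3 allow, and over the 5 pairs compared the adjusted *P* was 0.125. The ratio of *Hbb-bh1* to *Hbb-y* holds the same counts as the share of *Hbb-bh1* above, which was computed after its counts had been seen. Its test is therefore not independent of that share, whose lack of overlap fixed its *P*. The ratios of *Hba-x* to *Hba-a1* and of *Hbb-bs* to *Hbb-y* use counts of the shares of *Hba-x* and of the adult beta genes. Their tests are not independent of those shares either. Both ratios with *Hbb-bs* rest on the same counts of that gene, 12 in *Smyd1-KO* heart 1.

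The ratio of *Hba-a1* to *Hbb-y* was 0.265, 0.251 and 0.290 in *Smyd1-KO* hearts and 0.272, 0.287 and 0.251 in WT hearts. It differed by -0.01 on the log2 scale (exact permutation test, two-sided, *P*=1.0, adjusted *P*=1.0), with SDs of 0.11 and 0.10 within the groups. The 2 genes lie on different chromosomes. The profiles of *Hba-a1* and *Hbb-y* over the 6 hearts, each centred on its mean, were 0.083 apart as a root mean square on the log2 scale. Those of *Hba-x* and *Hbb-bh1*, also on different chromosomes, were 0.0896 apart. These were the smallest distances among the 21 pairs of members. *Hba-x* and *Hba-a1*, neighbors in one cluster, were 0.388 apart, and *Hbb-bh1* and *Hbb-y* in the other 0.386. *Hbb-bs* was 0.599 from *Hbb-bt* and 0.867 or more from every other member. These distances share the depth and the red cell content of the hearts and are given without a test.

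Reads of 75 bases cannot tell the near-identical copies apart along much of their length. Of the 75-base windows of the *Hba-a1* transcript, 62.2% were found without a mismatch in *Hba-a2*, and 81.0% of the windows of *Hba-a2* were found in *Hba-a1*. *Hbb-bt* shared 56.6% of its windows with *Hbb-bs*, and *Hbb-bs* 64.3% with *Hbb-bt*. *Hba-x*, *Hbb-y* and *Hbb-bh1* shared 0 windows with any other annotated gene. How the authors' counting treated such reads is not given in the sources used here, so the levels of the 4 adult genes are uncertain, and so are the shares that contain them. *Hba-a2* made up 12.6%, 7.35% and 9.18% of the adult alpha counts in *Smyd1-KO* hearts 1, 2 and 3, against 7.54%, 7.70% and 7.84% in WT hearts. With the copies summed, the adult alpha genes had a log2 fold change of -2.04 (adjusted *P*=0.121 by edgeR) and the adult beta genes one of -0.30 (adjusted *P*=0.854 by edgeR).

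Regulators of the globin genes, activators and the silencers *Bcl11a*, *Sox6* and *Zbtb7a* together, were examined next. Of 14 regulators, all tested, edgeR called 4 lower and 0 higher, against 1.42% and 2.86% of all tested genes, with a median log2 fold change of -1.04. Without *Smyd1-KO* heart 1 it called 5 lower and 1 higher, against 2.23% and 4.04%, the latter being *Bcl11a* (log2 fold change 0.95, adjusted *P*=0.0385 by edgeR), named after its value was seen. With all hearts *Bcl11a* had 0.64 (adjusted *P*=0.295 by edgeR) and *Sox6* 0.29 (adjusted *P*=0.281 by edgeR). *Gata1*, the GATA factor of red cells, reached 0.0411, 0.609 and 0.368 CPM in *Smyd1-KO* hearts 1, 2 and 3, against 1.98, 3.61 and 3.57 in WT hearts, and fell by a log2 fold change of -3.14 ± 0.676 (SE, edgeR adjusted *P*=0.0445). *Nfe2*, which binds the enhancers of both clusters, fell by a log2 fold change of -2.05 (adjusted *P*=0.00679 by edgeR). *Klf2*, a Krüppel-like factor that acts on embryonic globin genes and is also made by endothelial cells, fell by -1.77 on the log2 scale (adjusted *P*=0.0158 by edgeR). *Ikzf1*, a zinc finger factor of blood cells, was the last of the 4, with -1.29 on that scale (adjusted *P*=0.0256 by edgeR). *Klf1*, the Krüppel-like factor of red cells, had a log2 fold change of -2.49 (adjusted *P*=0.0512 by edgeR, 8.64e-06 by DESeq2) and was named after its value was seen. The 3 regulators with the highest levels were not called. They were *Ldb1* with a log2 fold change of -0.02, *Zfpm1* with -0.16 and *Zbtb7a* with 0.03 (adjusted *P*=0.571 or higher by edgeR).

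The haem of hemoglobin is made by a chain of enzymes whose first step in red cells is that of *Alas2*. Of 12 genes of haem synthesis and iron supply, edgeR called 1 lower and 0 higher, again against 1.42% and 2.86% of all tested genes, with a median log2 fold change of -0.23. The 1 called was *Alas2*, with 0.802, 3.25 and 2.79 CPM for *Smyd1-KO* hearts 1, 2 and 3, against 8.46, 11.5 and 11.3 CPM in WT hearts 1, 2 and 3 (log2 fold change -2.19 ± 0.463 SE, edgeR adjusted *P*=0.0428). Among the members with the highest levels were the transferrin receptor *Tfrc* (log2 fold change 0.50) and the haem synthesis gene *Cpox* (0.07), neither of which was called, at an adjusted *P* of 0.145 or higher by edgeR. Without *Smyd1-KO* heart 1 *Tfrc* was called higher, with a log2 fold change of 0.69 (adjusted *P*=0.0168 by edgeR). Of 18 genes of the red cell membrane and its enzymes, 16 were tested, 8 were called lower and 0 higher, against the same 1.42% and 2.86%, with a median log2 fold change of -2.67. *Bpgm*, which makes the phosphoglycerate that lowers the oxygen affinity of hemoglobin, fell by a log2 fold change of -0.72 (adjusted *P*=0.0136 by edgeR). The spectrin gene *Sptb* (log2 fold change -0.02) and *Epb41* (-0.01), the other 2 of highest level, were not called. Of the 44 genes of these 3 lists 42 were tested, and 13 were called lower by edgeR and 23 by DESeq2, against 1.42% and 3.21% of all genes tested. Without *Smyd1-KO* heart 1 edgeR called 17 of them, against 2.23% of all genes, without heart 2 it called 6, against 0.255%, and without heart 3 it called 4, against 0.35%. Without WT heart 1 it called 7, against 0.695%, without WT heart 2 it called 1, against 0.0403%, and without WT heart 3 it called 2, against 0.207%.

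The level relative to the WT mean was -4.79, -1.26 and -1.88 on the log2 scale for the median globin gene in *Smyd1-KO* hearts 1, 2 and 3. For the median membrane gene it was -3.18, -1.78 and -2.35. For both lists heart 1 was the lowest and heart 2 the highest of the *Smyd1-KO* hearts. The median regulator was at -0.86, -0.90 and -0.96. Among the regulators, *Gata1*, *Klf1* and *Gfi1b*, picked after their values were seen, had the order of the median globin gene in the *Smyd1-KO* hearts. So did *Tal1*, *Nfe2* and the silencer *Bcl11a*. The other regulators had other orders, and *Myb* was highest in heart 1, with 1.19, 0.66 and 0.666 CPM in *Smyd1-KO* hearts 1, 2 and 3. *Klf1* stood at 0.37, 1.91 and 0.613 CPM in the *Smyd1-KO* hearts and *Gfi1b*, a repressor of red cell and platelet precursors, at 0, 0.558 and 0.21 CPM.

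Markers of other cell types were set beside these values. Of 8 megakaryocyte and platelet markers only 2 passed the filter, neither was called, and the defining platelet genes *Pf4* and *Ppbp* stayed at 0.372 CPM or lower in every heart. Of 11 macrophage markers 4 were tested and 0 called by edgeR, 1 lower and 1 higher at an unadjusted *P* under 0.05, and DESeq2 called 1 higher. Their summed level was 8.58 to 10.6 CPM in *Smyd1-KO* hearts, against 8.00 to 11.3 CPM in WT hearts. Of 9 endothelial and endocardial markers 0 were called by edgeR, 2 were lower and 2 higher at an unadjusted *P* under 0.05, and DESeq2 called 2 lower and 1 higher. Of the 10 cardiomyocyte markers 0 were called by edgeR, with 1 lower and 1 higher at an unadjusted *P* under 0.05, and DESeq2 called 1 higher. In the fit without *Smyd1-KO* heart 1, edgeR called 2 cardiomyocyte markers higher, *Nppa* (log2 fold change 1.75, adjusted *P*=0.0208) and *Myh7* (0.92, adjusted *P*=0.0467). It also called 1 endothelial marker higher, *Kdr* (0.86, adjusted *P*=0.0104), and 0 of the other tested markers. Over all tested genes, edgeR called 1.42% lower and 2.86% higher, and DESeq2 called 3.21% lower and 5.78% higher. At an unadjusted *P* under 0.05 by edgeR, 11.9% were lower, and the share that was higher is not given here. Without *Smyd1-KO* heart 1 edgeR called 2.23% lower and 4.04% higher.

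Markers of yolk sac and hepatic endoderm varied between hearts of a genotype. *Afp* reached 9.67, 0.0338 and 48.0 CPM in *Smyd1-KO* hearts 1, 2 and 3, against 0.0671, 11.1 and 5.36 in WT hearts 1, 2 and 3. The summed level of the 7 markers was 33.3, 2.89 and 75.7 CPM in *Smyd1-KO* hearts, against 1.80, 35.0 and 20.7 CPM in WT hearts. The hearts with the least endoderm RNA, *Smyd1-KO* heart 2 and WT heart 1, had the most and the least globin RNA of their genotypes. The part of this tissue in the globin values was not tested. None of the 5 tested endoderm markers was called by edgeR, which called 1.42% of all tested genes lower and 2.86% higher. At an unadjusted *P* under 0.05 by edgeR 1 was higher. DESeq2 called 1 higher, against 5.78% of the genes it tested.

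**Figure D4:**
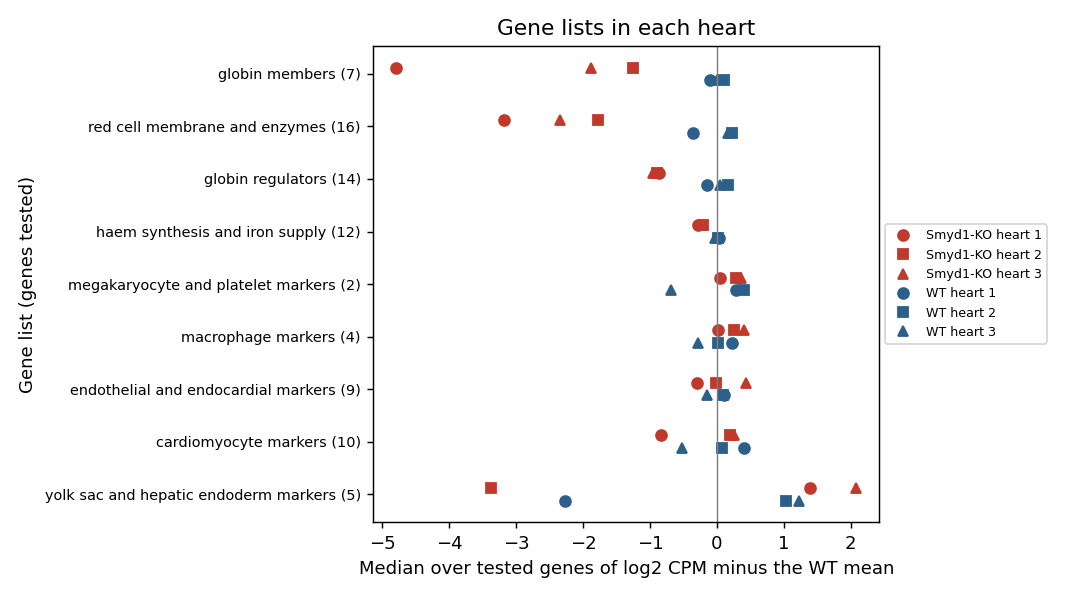
Median over the tested genes of each list of the log2 CPM minus the WT mean, for each heart, with *Smyd1-KO* in red and WT in blue. Globin and red cell membrane genes lie below 0 in all 3 *Smyd1-KO* hearts, from -4.79 to -1.26, and the endoderm markers spread over both genotypes.

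The 6 genes outside the group whose centred profile over the hearts lay closest to the mean profile of the 7 globin genes, among 14614 tested genes with a mean of at least 1 CPM, were *Gpr22*, *Alas2*, *Kcnn4*, *Gm4322*, *Hemgn* and *Trim10*. Their root mean square distance was 0.475 to 0.639 on the log2 scale, where the median gene was 1.57 away. The globin genes themselves lay from 0.232 (*Hba-a1*) to 1.11 (*Hbb-bt*) away from their mean profile. *Hba-x* was at 0.61, *Hbb-bh1* at 0.623 and *Hbb-bs* at 0.705, so the mean profile is not that of each member. The 6 genes were picked for a profile close to that of the globin genes in these hearts. Lower values in *Smyd1-KO* hearts therefore followed from the choice. *Alas2*, *Hemgn* and *Trim10* are genes of red cells and were called lower, the first and last being in the lists above. *Hemgn* had a log2 fold change of -2.72 (adjusted *P*=0.0383 by edgeR) and *Trim10* one of -2.64 (adjusted *P*=0.0238 by edgeR). *Gpr22*, an orphan receptor gene of heart, reached 0.206, 1.17 and 1.21 CPM in *Smyd1-KO* hearts, against 2.27, 1.73 and 2.43 in WT hearts. It was not called (log2 fold change -1.30, adjusted *P*=0.196 by edgeR), and neither was *Kcnn4*, the red cell potassium channel, with a log2 fold change of -2.47 (adjusted *P*=0.0535 by edgeR).

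Among other genes of the globin family, *Hbq1b*, a theta globin gene between *Hba-a1* and *Hba-a2*, was called lower with a log2 fold change of -4.03 (adjusted *P*=0.0372 by edgeR). It rested on 0, 3 and 1 counts in *Smyd1-KO* and 13, 45 and 23 counts in WT hearts, so that the size of the change is uncertain. The globins of other tissues were not called. Myoglobin *Mb* had a log2 fold change of 0.32 (adjusted *P*=0.696 by edgeR) and *Cygb* one of 0.22 (adjusted *P*=0.628 by edgeR). Of 4 neighbors of the alpha-like cluster on chromosome 11, 0 were called by edgeR or DESeq2. Over all tested genes edgeR called 1.42% lower and 2.86% higher, and DESeq2 3.21% and 5.78%. At an unadjusted *P* under 0.05 by edgeR, 1 of the neighbors was lower, against 11.9% of all tested genes. This was *Nprl3*, whose introns hold the enhancers of the cluster. It had a log2 fold change of -0.43 (adjusted *P*=0.0569 by edgeR) and was named after its value was seen. By DESeq2 its log2 fold change was -0.42 (adjusted *P*=0.0123 by DESeq2), short of the fold limit.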

How the data were processed

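Per the labels and the study's methods, poly A RNA of 6 single E9.5 hearts was sequenced from both ends, and the authors used STAR within bcbio-nextgen to place the reads on mm10. The deposited table holds raw counts per gene that the authors did not normalize. The counting tool, annotation release and strand setting are not given in the sources used here, and neither is the strain background of the embryos, while mm10 carries the C57BL/6 genes *Hbb-bs* and *Hbb-bt*. The deposited normalized table was not used. Genotypes and replicate numbers came from the labels.

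The test was edgeR 4.0.16 in R 4.3.3 (filterByExpr, TMM, quasi-likelihood fit and test, Benjamini-Hochberg over 19372 genes), without the replicate number, and with DESeq2 1.42.0 as an alternative. *P*-values measure the spread between single hearts. The standard error is the fold change over the square root of the F statistic, and 2 was the prior count on the log2 scale for profiles. Lengths and positions came from GENCODE M21, and promoter sequences, 6 of the 7 members being matched, from RefSeq on GRCm38.p6. The edgeR steps were tested on simulated data. Python 3.11.15, pandas 2.3.3, scipy 1.17.1 and matplotlib 3.10.9 were used. In the named lists, the 3 tested genes of highest level were named, and every called gene where there were 5 or fewer. Some genes that this rule names are not reported here. One listed neighbor of the alpha-like cluster lies on another chromosome in the mouse and was left out of that count after its position was seen. The members and lists were chosen with earlier results of these data known. Counts come without molecular identifiers, so intervals cover counting error only.

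The alternatives were DESeq2, RLE factors, library sizes without globin and mitochondrial genes, other filters on low counts, no limit on the fold change, robust estimation, summed near-identical copies, a block for the replicate number, and each heart left out in turn.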

Additional observations from a re-analysis of the deposited data

How the results depend on the processing

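In every setting tried, *Hba-x*, *Hba-a1*, *Hba-a2*, *Hbb-y* and *Hbb-bh1* kept a negative log2 fold change, and edgeR called them only in the settings named here. The number of globin genes called lower was 0 with all hearts, 3 with DESeq2, 2 without a filter on low counts (*Hba-x* and *Hbb-bh1*) and 0 to 5 with each heart left out, the 5 without *Smyd1-KO* heart 1. Of the 44 genes of the regulator, haem and membrane lists, 13 were called lower, 23 by DESeq2, 21 without the filter, and 1 to 17 with each heart left out, the 1 without WT heart 2 and the 17 without *Smyd1-KO* heart 1. Over all genes the count was 275, 624 by DESeq2, 334 without the filter and 8 to 447 with each heart left out. It was again lowest without WT heart 2 and highest without *Smyd1-KO* heart 1. Samples sharing a replicate number share only that number, with correlations of their deviations of -0.216, -0.0538 and -0.182. With the replicate number as a block, edgeR called 0 globin genes, 1 gene of the 3 lists and 3 genes lower in all, and *Hba-x* had a log2 fold change of -3.32 (adjusted *P*=0.127).

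The adult beta genes changed sign. *Hbb-bt* was at -0.09 under the block and at -1.09, -0.22 and -0.23 without *Smyd1-KO* heart 3, WT heart 2 and WT heart 3. With each heart left out *Hbb-bt* ran from -1.09 to 0.89 and *Hbb-bs* from -0.83 to 0.20. *Hbb-bs* was at 0.20 and 0.06 without *Smyd1-KO* heart 1 and WT heart 1. The cause was not tested, and neither gene was called in any setting. The differences in the 3 shares and in the log2 ratio of alpha-like to beta-like counts kept their sign. With each heart left out the difference ran from -9.32 to -7.93 percentage points for *Hba-x*, from -14.3 to -10.9 for *Hbb-bh1* and from 1.55 to 3.13 for the adult beta genes, and it was -9.33, -12.3 and 2.03 after division by length. *Hbb-bt* could not be tested with at least 10 counts in every heart. The 13 adult beta counts of *Smyd1-KO* heart 1 limit its shares.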

Other observations

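Genes that dispose of hemoglobin and haem moved in both directions. *Hmox1*, haem oxygenase, reached 35.7, 40.8 and 48.8 CPM in *Smyd1-KO* hearts 1, 2 and 3, against 19.4, 17.1 and 15.6 in WT hearts 1, 2 and 3. It rose by a log2 fold change of 1.27 ± 0.144 (SE, edgeR adjusted *P*=0.00668), with every *Smyd1-KO* heart above every WT heart. *Flvcr1*, a haem exporter, fell by a log2 fold change of -0.98 ± 0.187 (SE, edgeR adjusted *P*=0.0326). *Eif2ak1*, the haem-regulated kinase that limits globin translation, had a log2 fold change of -0.41 at an adjusted *P* of 0.0264 by edgeR, short of the fold limit. Of 8 genes in this list 6 were tested. The other 2, *Hp* and the receptor gene *Cd163*, were at or near 0 counts in every heart. *Hpx*, the hemopexin gene, was low but tested, with 12, 9 and 24 counts in *Smyd1-KO* hearts and 8, 13 and 27 in WT hearts (log2 fold change 0.13, adjusted *P*=0.909 by edgeR).

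*Hbb-bh0*, an annotated pseudogene of 129 bases between *Hbb-y* and *Hbb-bh1*, had 5, 14 and 12 counts in *Smyd1-KO* hearts 1, 2 and 3 and 112, 10 and 263 counts in WT hearts 1, 2 and 3. WT heart 2, which had the highest total of *Hba-x*, lay with the *Smyd1-KO* hearts here, and WT hearts 1 and 3 lay far above. The gene was not called by edgeR (log2 fold change -3.41 ± 1.01 SE, edgeR adjusted *P*=0.0957). DESeq2 called it lower (log2 fold change -3.43, adjusted *P*=0.000681 by DESeq2).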
